A study of Homo sapiens with 6 samples.

Results

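The 39 HOX genes were the rows of the count table whose symbol is HOX, a cluster letter from A to D and a paralog number, out of 39396 symbols in all. They fall into 11 HOXA, 10 HOXB, 9 HOXC and 9 HOXD genes, and 36 of them passed the expression filter and were tested. RNA sequencing was done on 6 libraries labelled RKO, a colorectal carcinoma line, with wild-type genotype. Of these, 3 were treated with olaparib, an inhibitor of the PARP enzymes that bind broken DNA, and 3 with DMSO, the solvent control. Both groups were grown in EMEM with fetal bovine serum and plated in 6-well plates a day before treatment. For the dose and the length of treatment, no value was given in the sources used here. The title of the study places the comparison in work on the acetyltransferase KAT2B, the repair gene RAD51C and olaparib sensitivity, and nothing in the labels concerns HOX genes.

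HOX genes encode homeodomain transcription factors that give cells their position along the body axis. Within each cluster the genes lie in order of paralog number, and in the embryo low-numbered genes come on early and towards the head, whereas high-numbered genes come on late and towards the tail. Adult cells often keep much of the HOX pattern of their origin, the hindgut is patterned by high-numbered genes, and trithorax and Polycomb complexes hold the clusters open or closed.

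Directions below are between libraries as labelled. The embryonic kidney and neuronal markers, 7 genes that include IRS4 and NEFL, were lower in 7 of 7 cases (40.3% over all genes tested). Of the 7, 3 had no olaparib count and passed the expression filter only through DMSO, so they could only be lower. The summed level of the 7 was 2.58 to 4.17 CPM in the olaparib libraries and 258 to 456 CPM in DMSO. CPM is counts relative to the scaled library size. Of 15 intestinal markers, 8 were tested, 5 were higher (35.4% over all genes tested) and 2 lower (40.3%). The 15 summed to 824 to 1102 CPM in olaparib and 243 to 313 CPM in DMSO. Among them, CDX1, CDX2, GPA33 and CEACAM5 had no count in olaparib, and CDX1 and KRT19 had none in DMSO. Of these, any that was tested passed the expression filter only through the other group, so its direction was fixed. CDX2, tested and lower, was such a gene. The part of cell source in the HOX differences was not tested, and in this design it cannot be told apart from treatment. In bulk RNA, fewer cells of a type and less RNA per cell cannot be told apart either. The labels do not say whether the 3 replicates of a group were separate cultures, and p-values cover only the spread among these 6 libraries, which may be technical. Library totals ran from 28715138 to 42423785 counts, and HOX genes took 14124 to 26253 of them.

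Of the 36 tested HOX genes, 12 were higher and 18 were lower in olaparib, and 6 did not pass the test. A gene was called where edgeR's quasi-likelihood test gave a Benjamini-Hochberg adjusted p below 0.05 over all 17078 genes tested. Over all these genes 75.7% were called, 35.4% higher and 40.3% lower, so the HOX counts were near the background of the whole comparison. The median log2 fold change of the tested HOX genes was -0.70, against -0.09 over all genes, and their median absolute change was 1.40 against 0.94. The number called and at least 2-fold lower was 17, where the background was 25%, and 7 were called and at least 2-fold higher, where it was 22%. HOXB2, HOXC12, HOXD10, HOXD11 and HOXD13 were called and at least 16-fold lower, as were 7.42% of all genes. The olaparib libraries lay wholly below the DMSO libraries for 18 tested HOX genes (background 42%) and wholly above for 13 (background 37.3%). The groups overlapped for 5, where 79.4% of all genes did not overlap.

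The clusters differed in direction, in a comparison where 35.4% of all genes tested were higher and 40.3% were lower. HOXC held 6 genes that were higher and 1 that was lower, of 9 tested. HOXD held 0 that were higher and 6 that were lower, of 7 tested. HOXA had 2 higher and 7 lower of 11, and HOXB had 4 of each among 9. Among the lower genes, HOXA2, HOXB2, HOXC12, HOXD10, HOXD11 and HOXD13 passed the expression filter only through DMSO, so they could only be lower. The median log2 fold change was 1.01 in HOXC, -0.48 in HOXB, -1.10 in HOXA and -2.22 in HOXD. Without HOXD, the other tested HOX genes comprised 12 higher and 12 lower out of 29.

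Summed over its members, HOXC stood at 229, 243 and 237 CPM in the olaparib libraries and at 117, 107 and 97.6 CPM in DMSO. HOXD stood at 13.9, 15.1 and 15.6 CPM in olaparib and at 123, 110 and 105 CPM in DMSO. Neither cluster overlapped between groups, and the HOXC sum was 2.20-fold higher while the HOXD sum was 7.61-fold lower. HOXA summed to 101 ± 5.06 CPM in olaparib and 139 ± 16.1 CPM in DMSO, and HOXB to 150 ± 2.70 and 211 ± 15.6 CPM. The sum of the whole set differed far less, from 571 ± 50.2 CPM in DMSO to 502 ± 7.15 CPM in olaparib, a 1.14-fold difference. In DMSO, replicate 1 had the highest sum for all 4 clusters, so the spread in that group was shared between them.

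**Figure D1:**
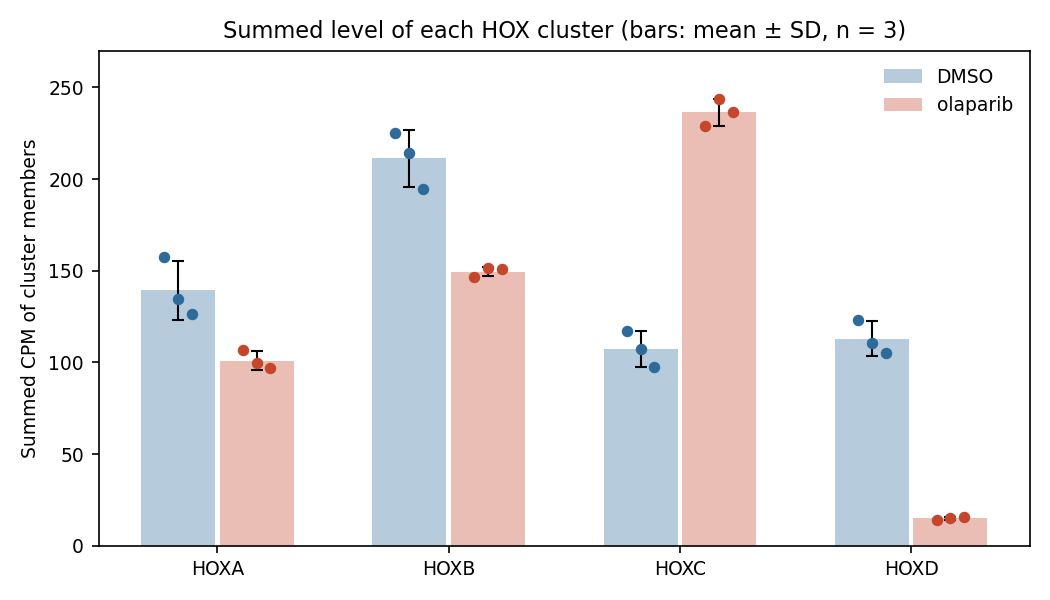
Summed CPM of the members of each HOX cluster, with a point for each library and bars at the mean ± SD of 3 libraries for DMSO (blue) and olaparib (red). HOXC was higher in olaparib (236 against 107 CPM), the other clusters were lower, and HOXD stood at 113 CPM in DMSO and 14.8 CPM in olaparib.

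Levels of different genes were compared only per kilobase (kb) of annotated exon. On that scale HOXC made up 48.4 ± 0.978% of the HOX level in olaparib and 18.9 ± 0.0568% in DMSO (SD, n = 3). HOXD made up 3.41 ± 0.147% in olaparib and 21.7 ± 0.387% in DMSO. HOXC10 led in olaparib, with 41.7 ± 2.57 CPM per kb, and HOXB7 was next at 21.2 ± 0.126, HOXC9 next at 17.9 ± 1.75 and HOXB6 next at 16 ± 2.36 CPM per kb, the last pair within each other's spread. In DMSO the leading genes were HOXB9 at 31.1 ± 1.43 CPM per kb and HOXD13 at 28.5 ± 3.30, which also lay within their spread. HOXA5 followed at 16.9 ± 1.26, then HOXB7 at 13.7 ± 1.55 and HOXC10 at 13.3 ± 1.13 CPM per kb. By mean, HOXB7 and HOXC10 were thus the 2 genes among the leading 5 of both groups. In DMSO, HOXA9 came next at 12.5 ± 1.41 CPM per kb, within the spread of both.

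With a mean of at least 1 CPM taken as expressed, 34 HOX genes were expressed in DMSO and 26 in olaparib. All 26 were also expressed in DMSO, and the 8 others were HOXA4, HOXB2, HOXC12, HOXD3, HOXD4, HOXD10, HOXD11 and HOXD13. HOXA2, HOXB1, HOXC5, HOXD1 and HOXD12 were below 1 CPM in both groups. Across the 39 genes the Spearman correlation of CPM per kb between groups was 0.578. It was 0.867 over the 9 HOXC genes, 0.809 over the 11 HOXA genes, 0.624 over the 10 HOXB genes and 0.233 over the 9 HOXD genes. The genes share libraries and are not independent, so these values are descriptions.

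**Figure D2:**
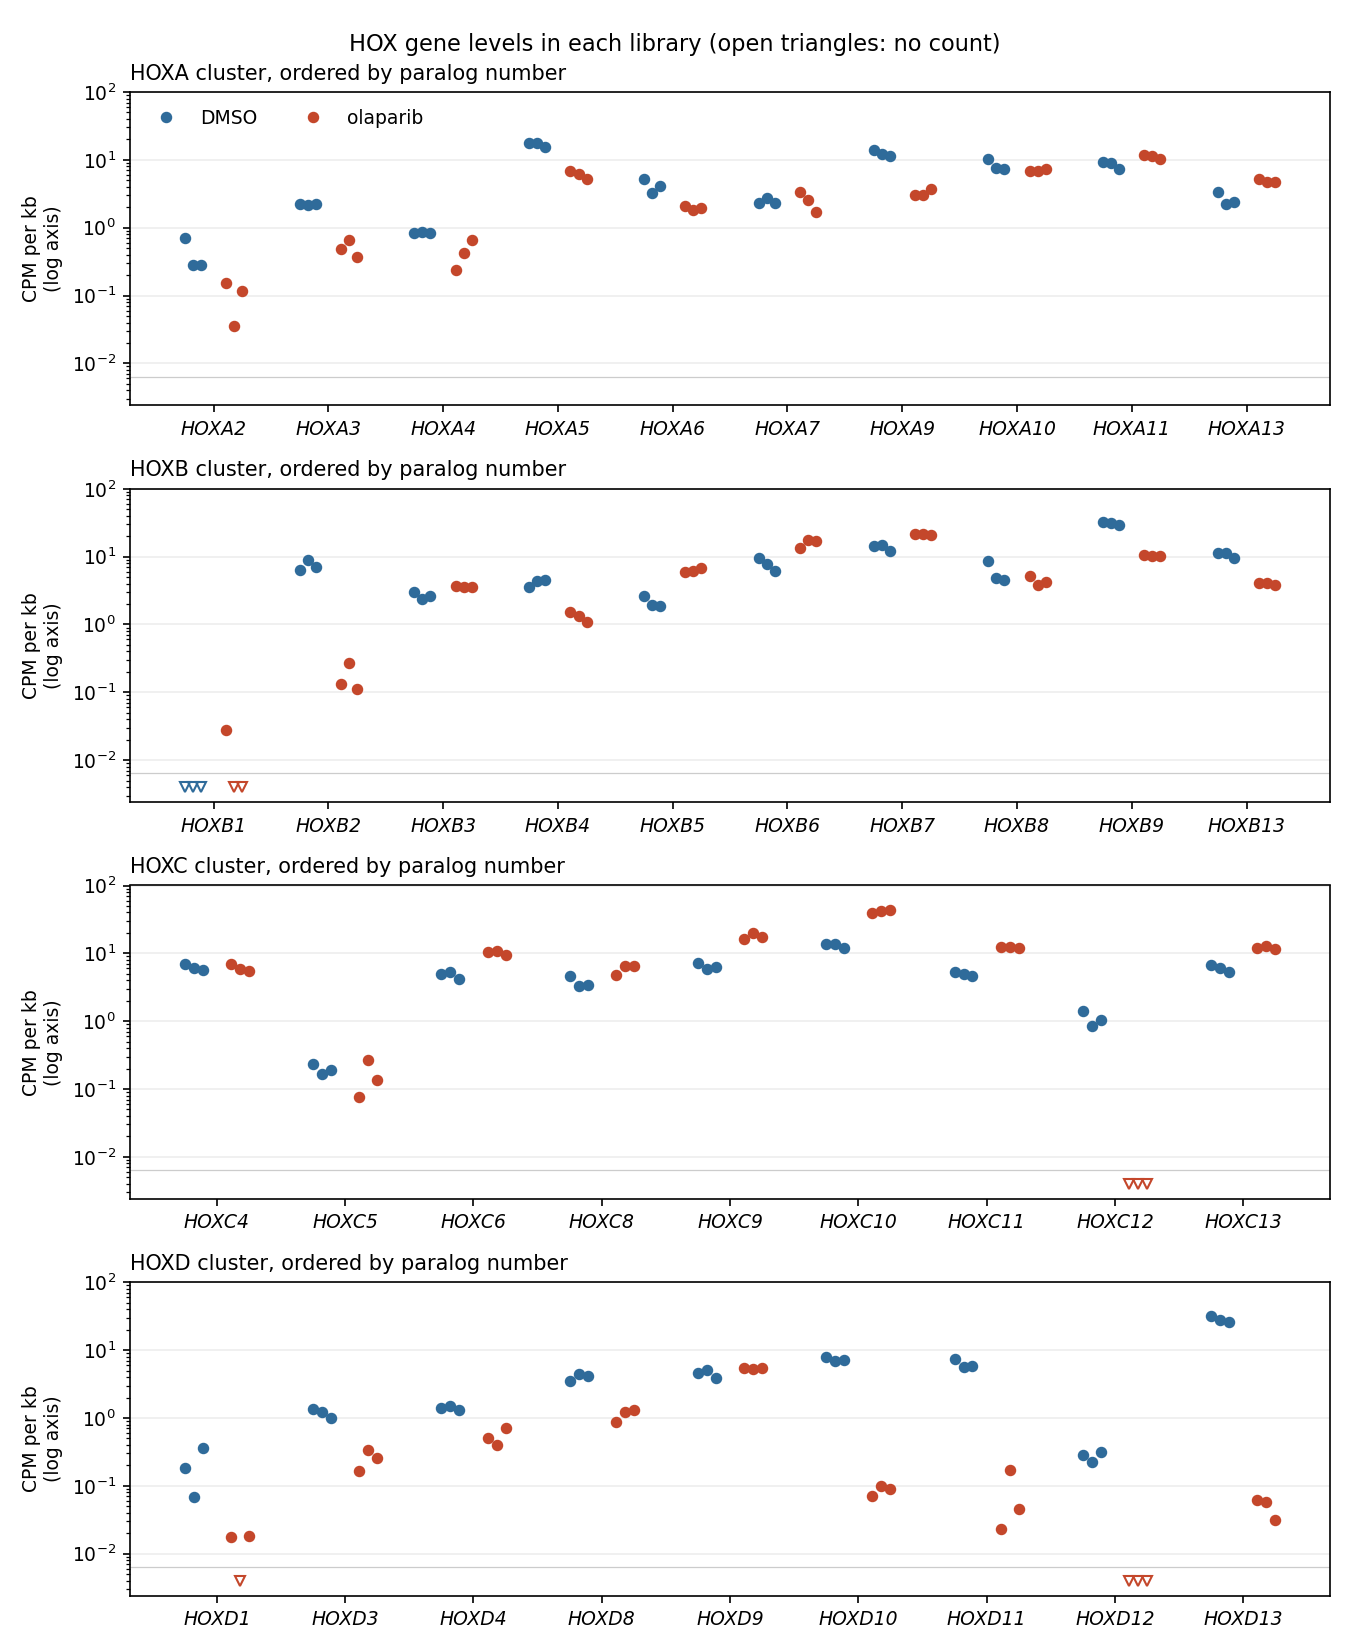
CPM per kb of exon (log axis) of the HOX genes described here in each library, by cluster and in order of paralog number, for DMSO (blue) and olaparib (red), with open triangles where a library had no count. HOXC6 to HOXC11 and HOXC13 sit higher in olaparib, whereas HOXD10, HOXD11 and HOXD13 drop from 6.33 to 28.5 CPM per kb in DMSO to below 0.1 on average in olaparib.

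The HOXD cluster spans chr2:176092891-176190907 on hg38, with HOXD13 at one end and HOXD1 at the other. Its high-numbered genes pattern digits, the hindgut and the genital tract. HOXD13 (chr2:176092891-176095938), mutated in synpolydactyly, a limb malformation, stood at 0.140, 0.131 and 0.0708 CPM in olaparib and at 72.2, 61.6 and 58.0 CPM in DMSO. The olaparib values rest on 4, 4 and 2 counts, and no library came near the other group. Its log2 fold change was -9.08 ± 0.22 (SE), or 543-fold lower (adjusted p = 7.57e-11). It made up 11.5% of the HOX level per kb in DMSO and 0.0231% in olaparib.

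HOXD10 (chr2:176108790-176119942), which acts in motor neurons of the hindlimb, stood at 0.140, 0.196 and 0.177 CPM in olaparib and at 15.8, 13.5 and 14 CPM in DMSO. It was 82.6-fold lower, with a log2 fold change of -6.37 ± 0.26 (adjusted p = 1.21e-09). HOXD11 (chr2:176104216-176109754), which shapes the forearm and the kidney, stood at 0.0349, 0.261 and 0.0708 CPM in olaparib and at 11.4, 8.70 and 8.97 CPM in DMSO. It was 75.4-fold lower, with a log2 fold change of -6.24 ± 0.41 (adjusted p = 4.92e-08), on 1, 8 and 2 counts in olaparib. Without olaparib replicate 2, which held the 8 counts, the log2 fold change was -7.43. Both genes were near the level of a few counts in every olaparib library. In the annotation 29.5% of the exon bases of HOXD11 also lie in HOXD10 on the same strand, so their reads are not fully separate. HOXD12 was removed by the expression filter, with no count in olaparib and 16, 9 and 19 counts in DMSO, at least 11.1-fold lower when 3 counts are set as the group's floor. With no filter it was called lower (adjusted p = 7.56e-05).

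The next gene in the row did not follow. HOXD9 (chr2:176122720-176124937) stood at 10.1, 9.77 and 10.2 CPM in olaparib and at 8.55, 9.37 and 7.37 CPM in DMSO. The groups did not overlap, with olaparib above, but the difference did not pass the test (log2 fold change 0.25 ± 0.16, adjusted p = 0.184). Measured from the 3′ end of HOXD1, the 3′ end of HOXD9 lies at 66.0 kb and that of HOXD10 at 71.0 kb. Between these neighbours the olaparib level went from 5.35 ± 0.110 to 0.0859 ± 0.0144 CPM per kb, while in DMSO it went from 4.51 ± 0.538 to 7.27 ± 0.585 CPM per kb. The same cluster thus held a gene at a similar level in both groups beside a row of genes almost without counts in olaparib.

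On the other side of HOXD9, the differences were smaller. HOXD8 stood at 2.27, 3.27 and 3.40 CPM in olaparib and at 9.19, 11.5 and 10.9 CPM in DMSO, 3.53-fold lower (log2 fold change -1.82 ± 0.21, adjusted p = 7.64e-06). HOXD3 was 4.66-fold lower, at 0.635 ± 0.215 against 2.99 ± 0.431 CPM (adjusted p = 6.84e-05). HOXD4 was 2.60-fold lower, at 0.782 ± 0.223 against 2.04 ± 0.147 CPM (adjusted p = 0.00227). In the annotation 88.5% of the exon bases of HOXD3 and 80.5% of those of HOXD4 also lie in another gene model on the same strand. The reads of each may therefore not be fully separate from those of that model. HOXD1 was removed by the same filter, with 1, 0 and 1 counts in olaparib and 15, 4 and 31 in DMSO, a DMSO over olaparib ratio of 18.9 (95% counting interval 4.96 to 160), and with no filter it was called lower (adjusted p = 0.000807). Such intervals and floors cover counting error only and are too narrow if both reads of a pair were counted.

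Because neighbouring HOXD genes moved so differently, the 250 bases before the start sites of HOXD13, HOXD12, HOXD11, HOXD10 and HOXD8 are shown, from RefSeq on GRCh38.p14, plus strand, 5′ to 3′. RefSeq start sites matched 20 of the 39 HOX genes in the table used, and HOXD9 was not among them. Capitals mark matches, on either strand, to 4 motifs. The TATA box, where the transcription machinery binds, was searched as TATAAA. The CCAAT box, bound by the factor NF-Y, was searched by the letters of its name. The site type of CDX proteins was searched as TTTATNG. The joint site type of PBX and HOX proteins was searched as TGATNNAT. The windows lie at chr2:176092471-176092720, chr2:176099545-176099794, chr2:176107030-176107279, chr2:176116528-176116777 and chr2:176129455-176129704.
HOXD13: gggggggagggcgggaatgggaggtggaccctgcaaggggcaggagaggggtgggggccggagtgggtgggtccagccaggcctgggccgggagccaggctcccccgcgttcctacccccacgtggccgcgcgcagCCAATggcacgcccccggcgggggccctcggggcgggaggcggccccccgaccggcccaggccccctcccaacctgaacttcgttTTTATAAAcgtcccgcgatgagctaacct
HOXD12: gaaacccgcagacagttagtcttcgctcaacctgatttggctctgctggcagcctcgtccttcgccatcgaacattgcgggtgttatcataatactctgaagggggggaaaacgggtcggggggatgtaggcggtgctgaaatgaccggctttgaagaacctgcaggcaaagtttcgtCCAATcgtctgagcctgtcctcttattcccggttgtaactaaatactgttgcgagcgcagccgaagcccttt
HOXD11: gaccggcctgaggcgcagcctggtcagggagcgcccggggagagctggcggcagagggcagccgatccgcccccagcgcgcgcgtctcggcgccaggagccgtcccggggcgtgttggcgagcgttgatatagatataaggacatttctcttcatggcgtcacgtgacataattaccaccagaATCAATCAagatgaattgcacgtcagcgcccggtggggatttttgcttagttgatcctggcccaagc
HOXD10: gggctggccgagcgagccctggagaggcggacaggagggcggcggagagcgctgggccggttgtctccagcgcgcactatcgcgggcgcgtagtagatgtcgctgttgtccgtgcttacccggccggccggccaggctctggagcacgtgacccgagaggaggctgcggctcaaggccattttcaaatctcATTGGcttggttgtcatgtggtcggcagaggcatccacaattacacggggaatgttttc
HOXD8: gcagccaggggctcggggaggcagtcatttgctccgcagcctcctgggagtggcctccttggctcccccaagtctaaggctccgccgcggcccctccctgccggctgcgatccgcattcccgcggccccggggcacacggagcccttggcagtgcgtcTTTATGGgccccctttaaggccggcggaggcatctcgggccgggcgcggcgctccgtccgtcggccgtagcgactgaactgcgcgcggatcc

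The HOXD13 window had 2 overlapping TATA box matches, 1 on each strand, and a CCAAT box match, and 74.0% of its bases were G or C. The CCAAT box also occurred in the HOXD12 and HOXD10 windows, the PBX and HOX motif in that of HOXD11, and the CDX motif in that of HOXD8. No motif was common to the 4 windows from HOXD13 to HOXD10. Of 34786 RefSeq windows of this length, 10.8% held the TATA box, 32% the CCAAT box, 8.95% the CDX motif and 6.49% the PBX and HOX motif. The HOXD13, HOXD12, HOXD11, HOXD10 and HOXD8 windows held 21, 16, 23, 23 and 28 CG dinucleotides, where the median over all windows was 11. DNA methylation was not measured here.

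The HOXC cluster spans chr12:53938765-54056030 and runs from HOXC13 to HOXC4. HOXC10 (chr12:53985065-53990279), which acts with HOXD10 in hindlimb motor neurons, stood at 75.7, 80.9 and 85.7 CPM in olaparib and at 26.9, 27.0 and 23.2 CPM in DMSO. Every olaparib library lay above every DMSO library, and the gene was 3.15-fold higher, with a log2 fold change of 1.65 ± 0.11 (adjusted p = 4.6e-08). Its share of the HOX level per kb was 19.0% in olaparib and 5.35% in DMSO, while that of HOXD10 was 0.0390% and 2.93%.

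HOXC9, which sets thoracic identity in the spinal cord, stood at 25.4, 30.7 and 27.3 CPM in olaparib and at 11.3, 9 and 9.81 CPM in DMSO, 2.76-fold higher (adjusted p = 1.36e-06). HOXC11, of the group that patterns limb and kidney, stood at 40.1, 40.1 and 39.4 CPM in olaparib and at 17, 16.3 and 15.2 CPM in DMSO, 2.46-fold higher (adjusted p = 4e-07). HOXC13, needed for hair and nail keratins, stood at 28.9, 30.7 and 28.2 CPM in olaparib and at 16.2, 14.5 and 12.9 CPM in DMSO, 2.02-fold higher (adjusted p = 1.51e-05). In each of these genes the olaparib libraries were all above the DMSO libraries. HOXC6 was 2.12-fold higher, at 33.1 ± 1.91 against 15.6 ± 2.04 CPM (adjusted p = 9.15e-06), and HOXC8 was 1.59-fold higher, at 11.3 ± 1.94 against 7.12 ± 1.39 CPM (adjusted p = 0.00889).

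HOXC12 (chr12:53954834-53958956), of the hair follicle, was the lower gene of the cluster and lies between HOXC11 and HOXC13. It had no count in any olaparib library and 198, 84 and 154 counts in DMSO, or 4.70, 2.83 and 3.48 CPM. It was at least 110-fold lower, set against the same floor (adjusted p = 7.81e-07). HOXD12, the other gene of paralog number 12, was also without a count in olaparib. At the opposite end, HOXC4 stood at 13.9 ± 1.76 CPM in olaparib and 14.2 ± 1.71 CPM in DMSO (adjusted p = 0.887). HOXC5 stood at 0.292 ± 0.179 CPM against 0.357 ± 0.0638 CPM (adjusted p = 0.649). HOXC4, HOXC5 and HOXC6 share exons in the annotation, 21.3% of the bases of HOXC4 being also in HOXC6, so part of their reads cannot be assigned to 1 of them.

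**Figure D3:**
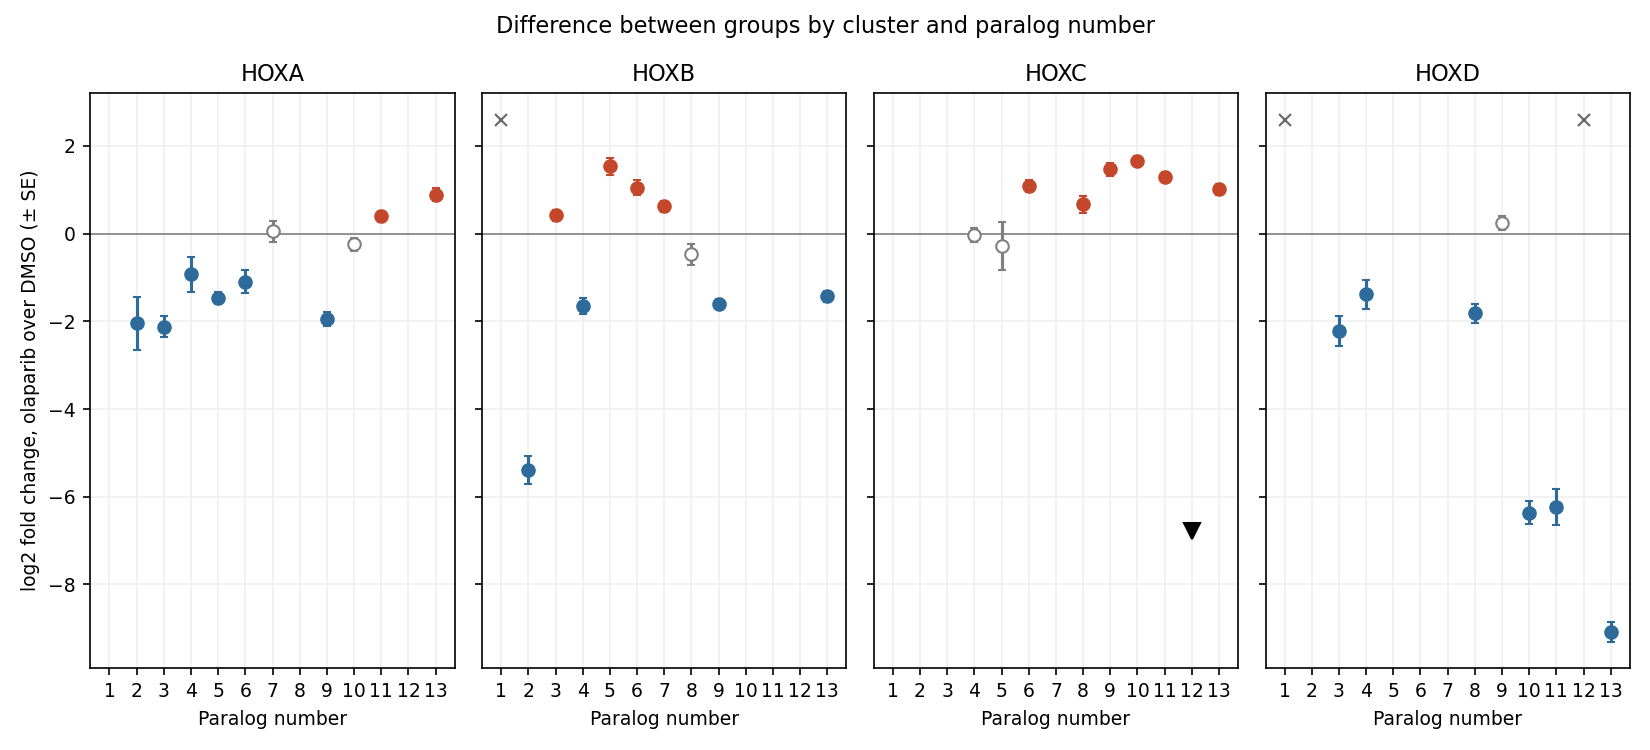
Log2 fold change (olaparib over DMSO, ± SE) by paralog number in each cluster, with red for called higher, blue for called lower, open circles for not called, a black triangle for HOXC12 at its bound and a cross at the top for genes not tested. HOXA broadly runs from lower to higher with paralog number, with HOXA9 as an exception. HOXC is higher apart from HOXC4, HOXC5 and HOXC12, and HOXD falls away on the far side of HOXD9.

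The HOXA cluster lies on chromosome 7, and its differences broadly ran with paralog number, with HOXA9 as an exception. Over the 11 genes the Spearman correlation of log2 fold change with paralog number was 0.836, against 0.117 over 9 HOXB, 0.200 over 9 HOXC and -0.643 over 7 HOXD genes, all as descriptions across genes of the same 6 libraries. The low-numbered genes described here, which pattern the hindbrain and pharynx, were lower. HOXA3, needed for thymus and parathyroid, stood at 1.78, 2.42 and 1.34 CPM in olaparib and at 8.07, 8.02 and 8.12 CPM in DMSO, 4.35-fold lower (adjusted p = 5.8e-06). The groups were well apart. HOXA2 was 4.12-fold lower on 2 to 8 counts per olaparib library (adjusted p = 0.00848), a call lost without DMSO replicate 1 (adjusted p = 0.0595). HOXA4 was 1.90-fold lower, at 0.779 ± 0.375 against 1.49 ± 0.0266 CPM (adjusted p = 0.0470), a call that did not hold under DESeq2 (adjusted p = 0.0792) or under 5 of the 6 fits that left out a library.

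HOXA5 (chr7:27141052-27143668), which acts in the lung and the gut, stood at 11.4, 10.4 and 8.74 CPM in olaparib and at 28.9, 29.6 and 25.6 CPM in DMSO. It was 2.75-fold lower, with a log2 fold change of -1.46 ± 0.14 (adjusted p = 1.41e-06). HOXA9 (chr7:27162435-27175180), a factor of blood stem cells and leukaemia, stood at 6.21, 6.21 and 7.61 CPM in olaparib and at 29, 24.8 and 23.5 CPM in DMSO. It was 3.86-fold lower, with a log2 fold change of -1.95 ± 0.15 (adjusted p = 2.26e-07), the smallest adjusted p of the HOXA genes. HOXA6 was 2.14-fold lower, at 1.94 ± 0.115 against 4.15 ± 0.974 CPM (adjusted p = 0.00198). HOXA7 and HOXA10 did not pass the test, at 5.11 ± 1.65 against 4.95 ± 0.471 CPM (adjusted p = 0.865) and at 22.2 ± 0.593 against 26.3 ± 4.99 CPM (adjusted p = 0.134).

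The last pair of the cluster moved the other way. HOXA13 (chr7:27193503-27200106), of hand, foot and genital development and of the hindgut, stood at 26.2, 24.1 and 24.1 CPM in olaparib and at 16.7, 11.4 and 11.9 CPM in DMSO, 1.86-fold higher (log2 fold change 0.89 ± 0.16, adjusted p = 0.000256). HOXA11, needed in limb and uterus, stood at 27.5, 25.7 and 23.7 CPM in olaparib and at 21.6, 20.3 and 16.8 CPM in DMSO, 1.31-fold higher (adjusted p = 0.0179). Its groups did not overlap, but the call was lost without olaparib replicate 1 (adjusted p = 0.0665), olaparib replicate 2 (adjusted p = 0.0527) or DMSO replicate 3 (adjusted p = 0.0794). Antisense RNAs overlap 30.9% of the exon bases of HOXA11 and 74.7% of those of HOXA7, and without strand their reads cannot be told apart from those of the HOX genes.

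In HOXB (chr17:48528526-48729178) a middle block was higher and genes on both sides of it were lower. HOXB2 (chr17:48540894-48544989), of hindbrain and neural crest patterning, stood at 0.209, 0.425 and 0.177 CPM in olaparib and at 9.95, 13.9 and 10.9 CPM in DMSO. It was 41.8-fold lower, with a log2 fold change of -5.38 ± 0.32 (adjusted p = 2.05e-08). HOXB3, which lies beside it, was 1.34-fold higher, at 22.7 ± 0.104 against 17 ± 2.01 CPM (adjusted p = 0.0108). HOXB4, known for expanding blood stem cells, stood at 5.76, 5.06 and 4.10 CPM in olaparib and at 13.5, 16.1 and 17 CPM in DMSO, 3.12-fold lower (adjusted p = 4.68e-06). From HOXB2 to HOXB5 the direction thus alternated from gene to gene.

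HOXB5, which acts in the gut's nervous system, stood at 12.0, 12.5 and 14 CPM in olaparib and at 5.41, 3.98 and 3.84 CPM in DMSO, 2.90-fold higher (adjusted p = 1.21e-05). HOXB6 was 2.06-fold higher, at 31.4 ± 4.62 against 15.2 ± 3.40 CPM (adjusted p = 0.000141), and HOXB7 was 1.54-fold higher, at 29 ± 0.173 against 18.8 ± 2.13 CPM (adjusted p = 0.000532). In these genes the groups did not overlap. HOXB6 shares 22.1% of its exon bases with HOXB3 on the same strand and 15.6% with HOXB-AS3 on the other. HOXB8 stood at 7.96 ± 1.31 CPM against 11 ± 4.26 CPM and did not pass the test (adjusted p = 0.1004), with DMSO replicate 1 at 16 CPM against 8.90 and 8.30 CPM in the others.

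HOXB9 (chr17:48621159-48626356), of rib and mammary gland patterning, stood at 26.8, 26.2 and 26.6 CPM in olaparib and at 83.4, 81.2 and 76.2 CPM in DMSO. It was 3.03-fold lower, with a log2 fold change of -1.60 ± 0.10 (adjusted p = 2.6e-08). HOXB13 (chr17:48724763-48729178), a marker of prostate and distal colon, stood at 14.2, 13.9 and 13.4 CPM in olaparib and at 39.5, 39.5 and 33.3 CPM in DMSO. It was 2.70-fold lower, with a log2 fold change of -1.43 ± 0.12 (adjusted p = 3.95e-07). Both genes were tight within groups and far apart between them. HOXB1, the first gene of the cluster, had 2 counts in 1 olaparib library and none elsewhere.

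Read by paralog number, most groups held genes of both directions. Number 13 held HOXA13 and HOXC13, which were higher, and HOXB13 and HOXD13, which were lower. Its summed level was 68.0 ± 1.96 CPM in olaparib and 129 ± 14.4 CPM in DMSO. Number 10 held HOXC10, which was higher, and HOXD10, which was lower, and summed to 103 ± 5.51 against 66.5 ± 7.48 CPM. Numbers 3, 5, 6, 8, 9 and 11 were split in the same way. HOXA2 and HOXB2, the genes of number 2, were both lower, as was HOXC12, the single tested gene of number 12. All of these passed the expression filter only through DMSO and could only be lower, as could HOXD10, HOXD11 and HOXD13. Number 4 had lower genes and HOXC4, which was not called, and number 7 had HOXB7, which was higher, and HOXA7, which was not called. Over all genes tested, 35.4% were higher and 40.3% were lower. The low numbers from 1 to 4 gave 1 higher and 8 lower gene of 10 tested, HOXA2 and HOXB2 among the 8, with a median log2 fold change of -1.84. Numbers 5 to 8 gave 5 higher and 3 lower of 11, with a median of 0.05, and numbers 9 to 13 gave 6 higher and 7 lower of 15, with a median of -0.24.

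Non-coding genes lie between the HOX genes, and several are known for controlling them. The list of these, with miRNA genes, had 25 entries, of which 24 were in the table and 19 were tested. In it 11 genes were higher and 4 were lower (35.4% and 40.3% over all genes tested), with a median log2 fold change of 1.01. HAGLROS, MIR196A1 and HOXB-AS4 passed the expression filter only through olaparib, so they could only be higher. HOXD-AS2 and HOXB-AS1 passed it only through DMSO, so they could only be lower. HAGLROS (chr2:176177717-176179008), near HOXD1, stood at 9.59, 9.02 and 9.27 CPM in olaparib and at 0.142, 0.135 and 0.0904 CPM in DMSO. It was 74.6-fold higher (log2 fold change 6.22 ± 0.30, adjusted p = 3.43e-09), inside the cluster in which 0 tested coding genes were called higher. HAGLR, which overlaps it in position on the other strand, stood at 7.73 ± 1.13 against 7.74 ± 2.89 CPM (adjusted p = 0.993). HOXD-AS2 was 8.87-fold lower, at 0.206 ± 0.00867 against 1.86 ± 0.0857 CPM (adjusted p = 1.05e-05).

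HOTTIP (chr7:27198575-27207259), at the HOXA13 end of its cluster and known to bring the WDR5 and MLL complex to HOXA genes, stood at 7.15, 7.64 and 5.77 CPM in olaparib and at 0.427, 0.607 and 0.407 CPM in DMSO. It was 14.4-fold higher (log2 fold change 3.85 ± 0.28, adjusted p = 1.2e-07), in the same direction as HOXA11 and HOXA13. HOXA11-AS was 2.75-fold higher (adjusted p = 5.3e-05), and HOTAIRM1, at the other end of the cluster, was 2.01-fold higher (adjusted p = 0.000394). In the middle of the cluster HOXA-AS3 was 2.72-fold lower (adjusted p = 0.000536) and HOXA-AS2 was 2.12-fold lower (adjusted p = 0.00259). HOTTIP shares 1.7% of the exon bases of HOXA13.

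In HOXC, HOTAIR (chr12:53962308-53974956) overlaps the span of HOXC11 on the other strand, reaches towards HOXC12 and is known for binding Polycomb complexes. HOTAIR stood at 12.6, 14.5 and 12.8 CPM in olaparib and at 6.15, 5.06 and 6.47 CPM in DMSO. It was 2.25-fold higher (log2 fold change 1.17 ± 0.17, adjusted p = 4.6e-05). HOXC-AS3 was 9.47-fold higher (adjusted p = 3.42e-07), HOXC-AS2 was 3.18-fold higher (adjusted p = 5.04e-05) and HOXC-AS1 was 1.73-fold higher (adjusted p = 0.00864). HOXC-AS1, HOXC-AS2 and HOXC-AS3 thus had the direction of HOXC9 and HOXC10. HOTAIR had the direction of HOXC11, whereas HOTAIR and its other neighbour HOXC12 differed in direction. In HOXB, HOXB-AS4 was 11.9-fold higher (adjusted p = 1.35e-06) and HOXB-AS3 was 2.85-fold higher (adjusted p = 1.32e-05), whereas HOXB-AS1 was 5.65-fold lower (adjusted p = 0.000852). MIR196A1, a miRNA gene of HOXB, was 17.4-fold higher on 10, 31 and 17 counts against 4, 0 and 0 (adjusted p = 0.000874). HOXB-AS2, HOXA10-AS and HOXC13-AS did not pass the test.

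**Figure D4:**
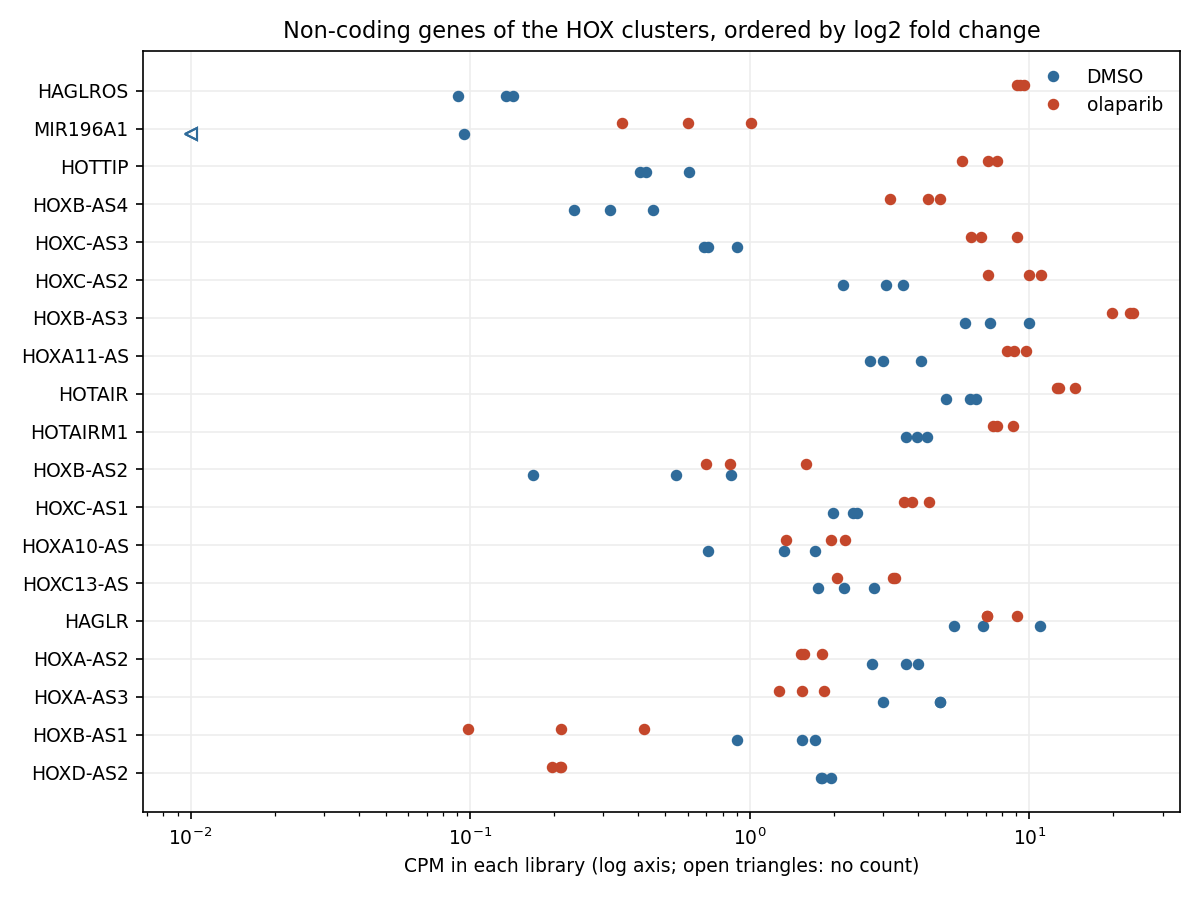
CPM in each library (log axis) of the 19 tested non-coding and miRNA genes of the HOX clusters, ordered by log2 fold change, for DMSO (blue) and olaparib (red), with an open triangle where a library had no count. HAGLROS, MIR196A1, HOTTIP, HOXB-AS4 and HOXC-AS3 are at the top, HAGLR overlaps, and HOXD-AS2, HOXB-AS1, HOXA-AS3 and HOXA-AS2 are lower in olaparib.

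HOX proteins bind DNA with partners of the TALE homeodomain class. Of the 11 TALE genes, 3 were higher (35.4% over all genes), 5 were lower (40.3%) and 3 did not pass the test, with a median log2 fold change of -0.31. PKNOX2 stood at 7.26 ± 1.24 CPM in DMSO and had no olaparib count, at least 216-fold lower (adjusted p = 7.9e-08). It passed the expression filter only through DMSO, so it could only be lower. PBX3, a direct partner of HOXA9, was 3.57-fold lower, at 8.42 ± 1.78 against 30.1 ± 0.724 CPM (adjusted p = 4.95e-07). TGIF2 was 3.31-fold lower (adjusted p = 5.84e-08) and TGIF1 was 2.93-fold higher (adjusted p = 4.53e-07). TGIF1 and TGIF2, related repressors, thus moved in opposite directions.

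The ParaHox and EVX list, genes related to HOX by ancestry, held 13 genes. Of these 5 were tested, and those 5 were lower (40.3% over all genes tested). Of the 5, all but MNX1 passed the expression filter only through DMSO, CDX2 and PDX1 among them. These could only be lower, so the count was largely set by the filter. CDX2, which switches on posterior HOX genes in the embryo and keeps intestinal identity in the adult, stood at 26.5, 24.4 and 22.5 CPM in DMSO and at 0 in every olaparib library, at least 713-fold lower (adjusted p = 2.03e-09). PDX1, of pancreas and duodenum, stood at 7.60 ± 0.267 CPM in DMSO and also at 0 in olaparib, at least 221-fold lower. MNX1, of motor neurons and pancreas, was 3.34-fold lower. EVX2, which lies next to HOXD13, was removed by the expression filter, with no count in olaparib and 12, 8 and 20 counts in DMSO, at least 10.1-fold lower. EVX2 and HOXD13 were thus both at or near 0 in olaparib, and the part of CDX2 in the HOX differences was not tested.

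Of 13 trithorax-side regulators, 4 were higher and 8 were lower (median log2 fold change -0.42). ASH2L was 2.06-fold lower, MEN1 1.75-fold lower, DOT1L 1.61-fold lower and KAT6B 2.07-fold higher. Of 19 Polycomb-side regulators, 4 were higher and 10 were lower (median -0.48). PHC1 was 4.21-fold lower, CBX6 3.60-fold lower, CBX2 1.89-fold lower and PHC3 2.73-fold higher. Retinoic acid switches on low-numbered HOX genes, and of 12 tested genes of its pathway 3 were higher and 5 were lower (median -0.22). The receptors RXRA and RARG were 5.91-fold and 11.9-fold higher. ALDH1A2, an enzyme that makes retinoic acid, was 312-fold lower, and CRABP2, which carries retinoic acid to the nucleus, was 20.5-fold lower. Each of the 3 lists thus held genes of both directions, in a comparison where 35.4% of all genes were higher and 40.3% were lower.

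Beyond the clusters, the 5 nearest protein-coding genes on each side gave 37 tested genes, of which 14 were higher (35.4% over all genes) and 12 were lower (40.3%), with a median log2 fold change of 0.08. Around HOXD, 3 of 9 tested neighbours were higher and 5 were lower, with a median of -0.60. LNPK, on the HOXD13 side, was 2.01-fold lower (adjusted p = 1.27e-05), and MTX2, on the HOXD1 side, was 2.72-fold lower (adjusted p = 8.03e-07). Around HOXC, 5 of 9 were higher and 1 was lower, with a median of 0.30. Around HOXA, 5 of 9 were higher and 2 were lower, with a median of 0.53, while in the cluster itself 2 were higher and 7 were lower. Around HOXB, 1 of 10 was higher and 4 were lower, with a median of -0.10. The neighbours of HOXD, HOXC and HOXB thus had medians of the same sign as the cluster but closer to 0, and those of HOXA had the opposite sign.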

How the data were processed

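Values were raw counts, deposited by the authors as 1 table of 6 libraries, 3 olaparib and 3 DMSO. Per the submitters' processing notes, reads went through fastp and STAR on hg38. For the counter, strand setting and annotation nothing is given in the sources used here. Counts of 2 were more common than counts of 1 in every library, so pairs may have been counted as 2 reads.

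The test was edgeR 4.0.16 (R 4.3.3), quasi-likelihood with robust dispersions, TMM scaling, the default expression filter and group as the only term, with Benjamini-Hochberg adjustment over 17078 genes and calls at 0.05. Levels are CPM on TMM-scaled totals, given as mean ± SD (n = 3). Lengths and positions came from GENCODE release 29, matched by symbol. Folds against a group without counts used a floor of 3 counts. Within groups, library pairs differed by more than sampling noise (chi-square per degree of freedom 4.74 to 68.6).

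Named were HOX genes, their non-coding and flanking genes, of other lists up to 4 genes with the smallest adjusted p, and of the markers those without a count in a group and 2 examples, IRS4 and NEFL, chosen after their values were seen. Marker lists of fibroblast (102 to 135 against 89.6 to 97.4 CPM), blood (0.174 to 0.653 against 0.674 to 0.760 CPM) and endothelium (22.8 to 24.5 against 0.427 to 1.01 CPM, olaparib against DMSO) were also summed. Some genes of the lists, included in the counts and sums, are not reported here by name. The members and lists were chosen with earlier results of these data known. Alternatives were DESeq2 1.42.0, limma-voom (limma 3.58.1), other scalings and filters, halved counts, a stricter threshold, a replicate block and the loss of each library.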

Additional observations from a re-analysis of the deposited data

How the results depend on the processing

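Across 15 alternatives the tested HOX genes gave 536 values, of which 512 kept the direction and the side of the threshold. For 28 of 36 genes this held throughout. HOXA7, which was not called, turned to -0.0200 on the log2 scale with library size alone and ranged from -0.2060 to 0.2835 when a library was left out, below 0 without olaparib replicate 1, DMSO replicate 1 (-0.0014) and DMSO replicate 3 (-0.0044). HOXC4, also not called, ranged from -0.1321 to 0.0691, above 0 without olaparib replicate 2 (0.0061), olaparib replicate 3 and DMSO replicate 1 (0.0642), and HOXC5 from -0.8766 to 0.0459, above 0 without olaparib replicate 1. The count of higher HOXA genes was 1 to 2 when libraries were left out and 1 at an adjusted threshold of 0.01, against 2. HOXA4 was lost in 8 alternatives, and HOXB3 at the 0.01 threshold. HOXB8 was called lower with no filter (adjusted p = 0.0380) and without DMSO replicate 3 (adjusted p = 0.0477). At least 10 CPM was reached by 22 HOX genes in DMSO, against 34 at 1 CPM. With the replicate block, 12 HOX genes were higher and 17 lower, the difference being HOXA4 (-1.0050, adjusted p = 0.0619). Same-numbered libraries did not deviate together (r = -0.18, -0.133 and -0.011 over 12629 genes), so the numbers pair nothing. HOXB1, HOXD1 and HOXD12 were removed by the default filter. HOXD1 and HOXD12 passed it, or another filter, in 6 alternatives (no filter, DESeq2 and the loss of any olaparib library or of DMSO replicate 2) and were lower in all 6, with adjusted p from 0.000807 to 0.0127 and from 7.56e-05 to 0.00181. The HOXD count of lower genes was then 8, against 6. The causes of these changes were not tested.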
